A study of Saccharomyces cerevisiae with 6 samples.

Results

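The comparison described here set budding yeast that overexpressed PSD1 against wild type, in 4 of the 6 RNA sequencing libraries of the study, 2 in each of these groups. All loci of the deposited tables were compared, and the libraries were chosen by the treatment named in their labels. Every library came from the laboratory strain W303. The overexpressing strain carried PSD1 under a GAL promoter on a 2µ plasmid, a multicopy vector, and the other strain is labelled a wild-type control (WT). Another group with the same plasmid and a deletion of PDR3, also 2 libraries, entered the statistical fit only to share the estimate of spread. Cells grew in 1% yeast extract, 2% peptone and 2% raffinose, and induction with 2% galactose lasted 4 h. The labels give that induction as plus or minus for every library without saying which received galactose, and they do not say whether WT carried an empty plasmid. Nor do they say whether separate cultures lie behind the libraries of a group, so the p-values measure the spread between these libraries only.

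Psd1 sits in the mitochondrial inner membrane, where it removes the carboxyl group of phosphatidylserine to make phosphatidylethanolamine. Like nearly all mitochondrial proteins it is made in the cytosol and imported, and a surplus of such a precursor can occupy the import machinery. Yeast answers import stress through several routes. The zinc cluster activators Pdr1 and Pdr3 switch on drug resistance genes through promoter sites called PDREs, and Pdr3 is the activator of the mitoCPR, in which Cis1 brings the ATPase Msp1 to the Tom70 receptor. Precursors that build up in the cytosol are met by chaperones under Hsf1 and by proteasome genes under Rpn4. The study's title places it in this field, and the comparison asks which transcripts accompany an excess of Psd1.

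Total counts were 11382036 and 10220872 in PSD1 overexpression, against 11628639 and 12315448 in WT. Of 6931 loci, 6171 had enough counts for edgeR's quasi-likelihood test, and 3443 of them (55.8%) differed at a Benjamini-Hochberg adjusted p under 0.05. The calls were even in direction, with 1723 higher (27.9%) and 1720 lower (27.9%), and the median log2 fold change over all tested loci was 0.006. Large changes were mostly rises: 242 loci (3.92%) were at least 2-fold higher and 59 (0.956%) at least 2-fold lower, while 69 were at least 4-fold higher and 0 at least 4-fold lower. The libraries of a group lay close together, with a biological coefficient of variation of 4.66%, so changes as small as 0.118 on the log2 scale were called and 64.2% of calls were under 0.5. At every called locus both libraries of one group lay above both of the other, as they did at 77.8% of all tested loci. Throughout, CPM is the count scaled to library size, a log2 value is the log2 fold change of PSD1 overexpression over WT ± SE, and n is 2 libraries per group. In bulk RNA, fewer cells of a kind and less RNA per cell cannot be told apart.

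Mating type markers were read as a check on the strain. The summed level of 6 MATa genes was 793 and 819 CPM in PSD1 overexpression, against 1030 and 1040 CPM in WT, and that of 4 MATalpha genes was 70.3 and 80.1 CPM, against 56.9 and 58.5 CPM in WT. URA3, the uracil synthesis gene often used as a plasmid marker, had 12138 and 12783 CPM in PSD1 overexpression, against 16645 and 17277 CPM in WT, a difference of -0.44 ± 0.12 (adjusted p = 0.00842) that was no longer called without PSD1 overexpression library 1. It held the most counts of any locus in WT and the second most in PSD1 overexpression. No gene of either set was at 0. The part of these marker differences in the results below was not tested.

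PSD1 (YNL169C, chromosome XIV, 316169 to 317671, R64 build) rose 11-fold. It had 164424 and 168240 counts in PSD1 overexpression, against 17202 and 16158 in WT, or 14465 and 16488 CPM in PSD1 overexpression, against 1495 and 1319 CPM in WT. The log2 change was 3.46 ± 0.10 (adjusted p = 3.51e-09). Scaled for length, its rank among tested loci was 26 and 19 by FPKM in PSD1 overexpression, against 362 and 411 in WT. Counts from the plasmid and from the chromosome are not separated in the table, and 205 bp of the gene overlap YNL170W on the other strand. Whether counting used the strand of the reads is not stated in the sources used here.

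The galactose genes GAL1, GAL2, GAL7 and GAL10 had larger log2 changes than PSD1. Gal4 activates this family through promoter sites made of CGG and CCG with 11 bases between them, and galactose relieves its inhibition by Gal80. Of 11 tested members of the galactose list 10 rose and 1 fell, with a median log2 of 3.28. GAL1, galactokinase, had 6399 and 6008 CPM in PSD1 overexpression, against 42.1 and 18.8 CPM in WT (7.68 ± 0.27, 205-fold). GAL7, the uridylyltransferase of the pathway, had 3895 and 3718 CPM in PSD1 overexpression, against 15.8 and 4.16 CPM in WT (8.59 ± 0.31). The epimerase gene GAL10 had 5966 and 5758 CPM in PSD1 overexpression, against 36.5 and 17.6 CPM in WT (7.77 ± 0.24). GAL2, the galactose permease, had 4568 and 4465 CPM in PSD1 overexpression, against 30.2 and 13.1 CPM in WT (7.71 ± 0.25). All 4 were thus present at low levels in WT and far higher in both overexpression libraries. The sensor GAL3 (3.28), the inhibitor GAL80 (1.97), the reductase GCY1 (3.36) and the phosphoglucomutase PGM2 (1.82) rose less, and GAL4 itself had 53.8 and 50.9 CPM in PSD1 overexpression, against 64.2 and 58.9 CPM in WT (-0.23 ± 0.07), a fall that lost its call without PSD1 overexpression library 2, without WT library 1 and with DESeq2. The galactose list took 2.36 and 2.27% of all counts in PSD1 overexpression, against 0.0987 and 0.0847% in WT. The excess of Psd1 and the difference in galactose response therefore coincide in these groups, and for every gene below they cannot be told apart.
The Gal4 site of the GAL7 promoter and 1 of the 3 sites of the GAL1 promoter are shown because both genes are among the 4 with the largest rises; capitals mark the site, and both windows read 5′ to 3′ on the strand of the gene, at chrII:275682-275741 (minus) and chrII:278583-278642 (plus) of R64.
GAL7: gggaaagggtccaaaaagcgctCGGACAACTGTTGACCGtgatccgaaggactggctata
GAL1: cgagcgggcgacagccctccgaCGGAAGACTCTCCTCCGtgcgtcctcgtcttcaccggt

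Targets of Pdr1 and Pdr3 rose as a group. Of 22 tested, 20 were higher, 15 of them at least 2-fold, 0 were lower and 2 did not pass, with a median log2 of 1.39. As a share of all counts they made up 0.652 and 0.723% in PSD1 overexpression, against 0.164 and 0.155% in WT.

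PDR3 and CIS1 are the regulator and the effector of the mitoCPR. PDR3 (YBL005W, at 217470 to 220400 of chromosome II) had 2283 and 2245 counts in PSD1 overexpression, against 724 and 798 in WT, which is 201 and 220 CPM in PSD1 overexpression, against 62.9 and 65.1 CPM in WT (1.72 ± 0.08, adjusted p = 7.7e-08). Its paralog PDR1 had 128 and 127 CPM in PSD1 overexpression, against 107 and 106 CPM in WT, and rose by 0.26 ± 0.05 (adjusted p = 0.00108). CIS1 (YLR346C, chromosome XII, 822287 to 822592) had 1510 and 1529 counts in PSD1 overexpression, against 12 and 11 in WT, or 133 and 150 CPM in PSD1 overexpression, against 1.04 and 0.898 CPM in WT (7.17 ± 0.15, 144-fold, adjusted p = 6.29e-10). With so few WT counts the size of that fold is less certain than the SE conveys. MSP1, the partner ATPase, had 156 and 157 CPM in PSD1 overexpression, against 139 and 133 CPM in WT (0.21 ± 0.05). TOM70, the docking receptor, had 576 and 613 CPM in PSD1 overexpression, against 725 and 670 CPM in WT (-0.23 ± 0.06). These changes were small beside that of CIS1. Both calls were lost when single libraries were left out, that of MSP1 without the overexpression library 2, and that of TOM70 without library 1 of either group.

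The efflux pumps rose to different degrees. PDR5, the main drug exporter of the plasma membrane, had 3123 and 3591 CPM in PSD1 overexpression, against 365 and 328 CPM in WT (3.28 ± 0.09, 9.68-fold, adjusted p = 3.35e-09). Its close relative PDR15, in a locus shared with YDR406W-A, had 663 and 717 CPM in PSD1 overexpression, against 71.7 and 54.5 CPM in WT (3.45 ± 0.10). SNQ2, another multidrug exporter, had 436 and 465 CPM in PSD1 overexpression, against 190 and 164 CPM in WT (1.35 ± 0.07). YOR1, the oligomycin exporter, had 152 and 158 CPM in PSD1 overexpression, against 76.2 and 72.7 CPM in WT (1.06 ± 0.05). PDR10, another pump of the PDR5 family, had 60.3 and 48.3 CPM in PSD1 overexpression, against 41 and 40.2 CPM in WT (0.42 ± 0.10), and the call was lost without PSD1 overexpression library 1. The polyamine exporter TPO1 rose by 0.24 ± 0.07 and lost its call without PSD1 overexpression library 2, without WT library 2 and in both fits to FPKM. RTA1 (0.32 ± 0.16) and YPL088W (0.11 ± 0.06) did not pass.
Other targets act on lipids and aldehydes. GRE2, a methylglyoxal reductase, had 354 and 393 CPM in PSD1 overexpression, against 41.3 and 42.6 CPM in WT (3.15 ± 0.08) and overlaps YOL150C on the other strand by 250 bp. The dehydrogenase gene BDH2 had 157 and 179 CPM in PSD1 overexpression, against 31 and 32.4 CPM in WT (2.41 ± 0.09). YGR035C, an uncharacterised target, had 22.9 and 27.7 CPM in PSD1 overexpression, against 2.17 and 1.63 CPM in WT (3.73 ± 0.19). The phosphatidylinositol transfer protein gene PDR16 had 238 and 251 CPM in PSD1 overexpression, against 121 and 118 CPM in WT (1.03 ± 0.05). LAF1 had 182 and 208 CPM in PSD1 overexpression, against 59.9 and 64 CPM in WT (1.65 ± 0.07). The acyltransferase ICT1 had 130 and 135 CPM in PSD1 overexpression, against 49.8 and 49 CPM in WT (1.42 ± 0.06). The hexose transporter genes HXT9 and HXT11, near-identical copies whose reads may not have been separated, rose by 1.54 and 1.49.

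The perfect PDRE, TCCGCGGA, was searched on both strands in the 500 bases before each start codon. It lay in 6 of 21 promoters of listed targets (28.6%), and in 31 of all 5583 promoters (0.555%). Of those 31 genes 22 rose, 5 fell and 10 were at least 2-fold higher. With base 5 free (TCCGNGGA) it lay in 16 of the 21 (76.2%) and in 2.92% of all promoters. Windows of 7 targets are given, chosen among listed targets that hold a site and were called at least 2-fold higher. Both features were used in the choice, so the windows do not show that they go together. Capitals mark the site, each window reads 5′ to 3′ on the strand of its gene, and coordinates are on R64. They lie at chrXII:822884-822943 (minus, CIS1), chrXV:619501-619560 (plus, PDR5), chrI:33028-33087 (plus, BDH2), chrII:217253-217312 (plus, PDR3), chrXIV:217431-217490 (minus, PDR16), chrVII:557705-557764 (minus, YGR035C) and chrXV:43517-43576 (plus, GRE2). CIS1, PDR5, BDH2, PDR3 and PDR16 have the perfect site. GRE2 has another base at position 5 from the 5′ end of the site as printed. YGR035C has another base at position 5 when its site is read on the other strand.
CIS1: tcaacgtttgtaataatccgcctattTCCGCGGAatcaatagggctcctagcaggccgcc
PDR5: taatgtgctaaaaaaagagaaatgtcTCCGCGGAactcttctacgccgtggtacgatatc
BDH2: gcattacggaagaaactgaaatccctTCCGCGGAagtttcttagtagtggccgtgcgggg
PDR3: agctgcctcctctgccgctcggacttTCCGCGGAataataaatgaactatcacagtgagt
PDR16: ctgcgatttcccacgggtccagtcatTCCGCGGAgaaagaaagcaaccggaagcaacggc
YGR035C: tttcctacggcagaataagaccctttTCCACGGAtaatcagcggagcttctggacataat
GRE2: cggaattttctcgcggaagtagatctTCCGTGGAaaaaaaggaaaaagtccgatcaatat

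**Figure D1:**
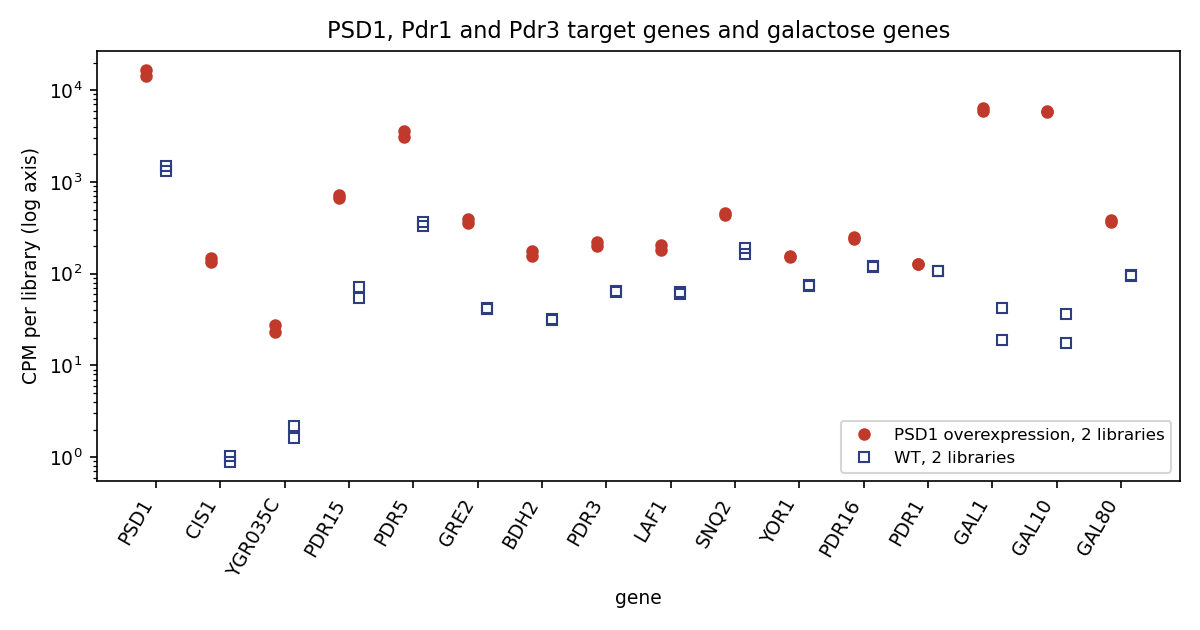
Level of PSD1, targets and regulators of the drug resistance network, and 3 galactose genes in each library, in CPM on a log axis, with PSD1 overexpression left of WT for each gene and 2 libraries per group. CIS1 shows the widest gap of the drug resistance genes, with 133 and 150 CPM in the overexpressing strain, against 1.04 and 0.898 CPM in WT, whereas the points of PDR1 lie almost together.

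Transporters outside that regulon were mixed. Of 19 tested drug and acid transporters and their regulators, 8 rose, 3 fell and 8 did not pass, with a median log2 of 0.17. AQR1, an exporter of acids and amino acids, had 125 and 108 CPM in PSD1 overexpression, against 46.7 and 47.6 CPM in WT (1.30 ± 0.16). In the other direction QDR2, a multidrug antiporter, had 84.6 and 77.5 CPM in PSD1 overexpression, against 124 and 136 CPM in WT (-0.68 ± 0.07), TPO4, a polyamine exporter, fell by 0.64 ± 0.09, and PDR12, the weak acid pump under War1, had 93.8 and 85.3 CPM in PSD1 overexpression, against 125 and 105 CPM in WT (-0.36 ± 0.08), a call lost without PSD1 overexpression library 2.

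Cytosolic chaperones rose according to class. Among 17 genes of the Hsp70 and Hsp110 list 11 rose, 4 fell and 2 did not pass (median 0.76). All 8 tested small heat shock and aggregate-handling genes rose (median 2.06). Of 14 genes for Hsp90 and its co-chaperones 11 rose, 1 fell and 2 did not pass (median 0.34). The cytosolic chaperonin and prefoldin, which fold newly made actin and tubulin, differed little between the groups, with 0 of 14 higher, 2 lower and a median of -0.01; 0 to 2 were lower across the alternatives.
HSP26, a small heat shock protein, had 1232 and 1337 CPM in PSD1 overexpression, against 35.1 and 36.8 CPM in WT (5.16 ± 0.16, 35.7-fold). SSA3, a stress-inducible cytosolic Hsp70, had 718 and 726 CPM in PSD1 overexpression, against 45.4 and 43.7 CPM in WT (4.02 ± 0.05). Its paralog SSA4 had 503 and 482 CPM in PSD1 overexpression, against 62 and 61.9 CPM in WT (2.99 ± 0.08). SSA1 and SSA2 are the forms active in growing cells. SSA1 had 1878 and 1830 CPM in PSD1 overexpression, against 444 and 391 CPM in WT (2.15 ± 0.07). SSA2 had 1209 and 1296 CPM in PSD1 overexpression, against 686 and 670 CPM in WT (0.89 ± 0.05). These copies are near-identical, so reads may have been divided between them by the counting. By contrast the ribosome-bound Hsp70 genes fell. SSB1 had 479 and 452 CPM in PSD1 overexpression, against 800 and 820 CPM in WT (-0.80 ± 0.05). SSB2 had 857 and 845 CPM in PSD1 overexpression, against 1328 and 1362 CPM in WT (-0.66 ± 0.05), and their co-chaperones ZUO1 (-0.33) and SSZ1 (-0.19) fell with them. Within one chaperone family the stress forms were thus higher and the ribosome-bound forms lower.
HSP82, the inducible Hsp90, had 3165 and 3287 CPM in PSD1 overexpression, against 642 and 588 CPM in WT (2.39 ± 0.07). The constitutive HSC82 had 4080 and 4167 CPM in PSD1 overexpression, against 2374 and 2370 CPM in WT (0.80 ± 0.06). STI1, which links Hsp70 to Hsp90, rose by 1.58 ± 0.05, and the Hsp90 phosphatase PPT1 fell (-0.45 ± 0.05). The disaggregase HSP104 had 1733 and 1765 CPM in PSD1 overexpression, against 512 and 467 CPM in WT (1.84 ± 0.07). BTN2, a sorting factor for misfolded proteins, had 318 and 285 CPM in PSD1 overexpression, against 48.7 and 49.4 CPM in WT (2.62 ± 0.09). HSP42, a small heat shock protein that gathers aggregates, had 499 and 527 CPM in PSD1 overexpression, against 131 and 125 CPM in WT (2.00 ± 0.06).

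The binding unit of Hsf1, the heat shock factor, is GAA or its complement TTC, and the heat shock element of 3 such units in alternation, each 2 bases from the next, was searched on both strands. This element lay in 5 of 17 Hsp70 and Hsp110 promoters, 2 of 14 Hsp90 promoters, 3 of 8 small heat shock promoters and 3 of 11 matrix chaperone promoters, against 1.54% of all promoters. Windows of 3 genes from 3 of these classes are shown, with the 3 units in capitals, 5′ to 3′ on the strand of the gene, at chrVII:772091-772150 (plus, BTN2), chrI:141657-141716 (minus, SSA1) and chrIV:974450-974509 (minus, HSP78) of R64.
BTN2: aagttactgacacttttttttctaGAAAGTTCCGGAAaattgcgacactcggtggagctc
SSA1: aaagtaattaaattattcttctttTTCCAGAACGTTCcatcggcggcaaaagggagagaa
HSP78: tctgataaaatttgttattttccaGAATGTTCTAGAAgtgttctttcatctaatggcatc

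Proteasome genes rose together and by little. All 14 core subunits (median 0.37) and all 19 regulatory subunits (median 0.35) were higher, against 27.9% of all tested loci. The assembly and regulator list had 15 of 18 higher and 0 lower (median 0.42). None of the core or regulatory subunits reached 2-fold. PRE3, a catalytic beta subunit, had 347 and 336 CPM in PSD1 overexpression, against 213 and 223 CPM in WT (0.65 ± 0.05), the largest rise of the core. RPN4, the activator of these genes, had 228 and 235 CPM in PSD1 overexpression, against 146 and 145 CPM in WT (0.67 ± 0.05). The polyubiquitin gene UBI4 had 997 and 1014 CPM in PSD1 overexpression, against 500 and 487 CPM in WT (1.03 ± 0.05).
The Rpn4 element GGTGGCAAA (PACE), searched on both strands, lay in 12 of 14 core promoters (85.7%) and 15 of 19 regulatory promoters (78.9%), in 3 of 18 assembly promoters and in 1.67% of all promoters. The windows of PRE3, of the proteasome-binding factor ECM29 (0.67) and of UBI4 show it in either orientation, in capitals, at chrX:435019-435078 (plus), chrVIII:39927-39986 (plus) and chrXII:65334-65393 (minus), 5′ to 3′ on the strand of the gene.
PRE3: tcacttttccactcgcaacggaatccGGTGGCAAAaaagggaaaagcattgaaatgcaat
ECM29: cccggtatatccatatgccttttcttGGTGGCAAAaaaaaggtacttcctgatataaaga
UBI4: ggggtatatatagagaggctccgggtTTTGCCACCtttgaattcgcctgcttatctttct

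Autophagy genes and vacuolar hydrolase genes mostly rose. Of 34 autophagy genes 26 were higher, 0 lower and 8 did not pass (median 0.43). ATG40, a receptor for autophagy of the endoplasmic reticulum, had 61.8 and 71.2 CPM in PSD1 overexpression, against 27.5 and 25.5 CPM in WT (1.33 ± 0.09). ATG31, part of the initiating scaffold, had 42.4 and 42.1 CPM in PSD1 overexpression, against 18.7 and 19 CPM in WT (1.16 ± 0.08). ATG8, whose product is attached to the growing membrane, rose by 0.79 ± 0.10, while ATG32, the receptor for autophagy of mitochondria, did not pass (0.19 ± 0.08). Of 11 vacuolar hydrolase genes 8 rose, with the mannosidase AMS1 (1.46) and the aminopeptidase APE1 (1.05) the highest, and YPS3, a cell surface protease placed on the same list, fell (-0.65 ± 0.06). The vacuolar ATPase had 6 of 18 higher and 2 lower (median 0.03), a share higher near that of all tested loci (27.9%), with 1 lower without PSD1 overexpression library 2. In the endoplasmic reticulum list 8 of 20 were higher and 1 lower (median 0.09), with 5 higher without PSD1 overexpression library 1. The oxidase gene ERO1 had 260 and 249 CPM in PSD1 overexpression, against 132 and 110 CPM in WT (1.07 ± 0.08), ULI1 rose by 1.75 ± 0.14, and KAR2, the Hsp70 of that compartment, had 1174 and 1202 CPM in PSD1 overexpression, against 1038 and 890 CPM in WT (0.30 ± 0.07).

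**Figure D2:**
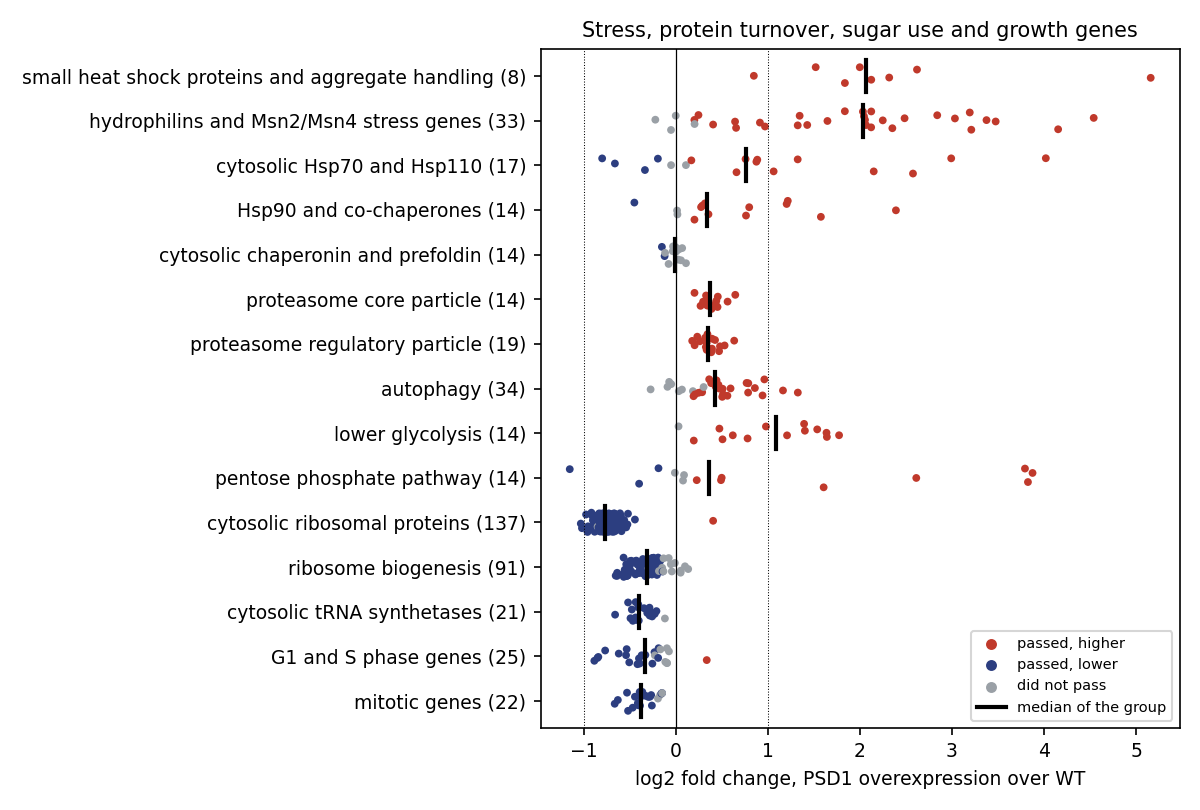
Log2 fold change of PSD1 overexpression over WT for each tested member of 15 gene lists, one point per gene, red for genes called higher, blue for genes called lower and grey for genes that did not pass; black bars are list medians and dotted lines mark 2-fold in either direction. Small heat shock genes (up to 5.16), hydrophilins and stress genes (4.54) and Hsp70 genes (4.02) reach furthest up, and ribosomal protein genes form a compact band near -0.76.

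Inside mitochondria, the folding machinery of the matrix rose. Of 11 matrix chaperone genes 7 were higher, 2 lower and 2 did not pass (median 0.76); 0 to 2 were lower across the alternatives. HSP60, the matrix chaperonin, had 4359 and 4516 CPM in PSD1 overexpression, against 1995 and 1747 CPM in WT (1.25 ± 0.08). Its lid HSP10 had 1464 and 1434 CPM in PSD1 overexpression, against 514 and 518 CPM in WT (1.49 ± 0.05). HSP78, the matrix disaggregase, had 1321 and 1398 CPM in PSD1 overexpression, against 386 and 357 CPM in WT (1.87 ± 0.07). SSC1, the Hsp70 that drives import and folding, had 4428 and 4656 CPM in PSD1 overexpression, against 2753 and 2390 CPM in WT (0.82 ± 0.08), and its J-protein MDJ1 rose by 1.10 ± 0.05. The nucleotide exchange factor MGE1 had 345 and 351 CPM in PSD1 overexpression, against 331 and 341 CPM in WT, and did not pass (0.05 ± 0.05). CPR3 and TCM62, which both assist folding, fell (-0.22 ± 0.07 and -0.22 ± 0.05), and both calls were lost without PSD1 overexpression library 1, that of CPR3 also without PSD1 overexpression library 2, without WT library 1 and in both fits to FPKM.

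Import channels changed little by comparison. In the outer membrane list 29.4% were higher and 23.5% lower, near the 27.9% of all tested loci in each direction. In the inner membrane list 12.5% were higher and 31.2% lower. Of 17 outer membrane translocase and porin genes 5 rose and 4 fell (median 0.02), with 2 lower without PSD1 overexpression library 1 or WT library 1. TOM40, the pore, had 534 and 559 CPM in PSD1 overexpression, against 588 and 575 CPM in WT, and did not pass (-0.09 ± 0.05). Among 16 inner membrane translocase genes 2 rose and 5 fell (median -0.04), with 3 lower without PSD1 overexpression library 1. TIM23, the presequence channel, had 388 and 403 CPM in PSD1 overexpression, against 499 and 486 CPM in WT (-0.32 ± 0.05). TIM44, which tethers Hsp70 to it, had 360 and 359 CPM in PSD1 overexpression, against 481 and 455 CPM in WT (-0.38 ± 0.05). The intermembrane space pathway had 5 of 11 higher and 0 lower (median 0.30), led by MIA40, its oxidative receptor, with 1007 and 998 CPM in PSD1 overexpression, against 600 and 604 CPM in WT (0.74 ± 0.05).
Quality control at the outer membrane was represented by 8 genes, of which 4 rose and 1 fell (median 0.15); without PSD1 overexpression library 2 there were 2 higher, and the fall, FIS1, lost its call with DESeq2 and without PSD1 overexpression library 1. Besides CIS1 and MSP1, UBX2, which recruits Cdc48 to stalled precursors, had 80.8 and 90.3 CPM in PSD1 overexpression, against 75.8 and 67.4 CPM in WT (0.26 ± 0.08), a call lost without PSD1 overexpression library 2, without WT library 2 and in both fits to FPKM. The ubiquitin protease gene UBP16 rose by 0.29 ± 0.06. Of 16 proteases and peptidases 3 rose (18.8%) and 2 fell (12.5%), against 27.9% of all tested loci in each direction (median 0.05). More of them were higher without WT library 1. PIM1, the matrix Lon protease, had 567 and 567 CPM in PSD1 overexpression, against 433 and 408 CPM in WT (0.43 ± 0.06), and OCT1, an intermediate peptidase, fell (-0.50 ± 0.05).

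Structural subunits of the respiratory chain fell, and factors that assemble them mostly rose. In complex III all 9 tested genes were lower (median -0.78), in complex IV 8 of 10 were lower and 1 higher (median -0.77), and in the ATP synthase list 15 of 17 were lower and 2 higher (median -0.87), against 27.9% lower over all loci. Of 29 assembly factors 19 rose, 3 fell and 7 did not pass (median 0.38). Complex II divided evenly, 4 higher and 4 lower: its 4 structural genes SDH1 to SDH4 fell and its 4 assembly or flavin attachment genes SDH5 to SDH8 rose. SDH1, the flavoprotein, had 699 and 679 CPM in PSD1 overexpression, against 1602 and 1384 CPM in WT (-1.12 ± 0.08). SDH5, which attaches the flavin to it, had 235 and 238 CPM in PSD1 overexpression, against 125 and 108 CPM in WT (1.02 ± 0.07).
ATP2, the catalytic beta subunit of ATP synthase, had 2036 and 2065 CPM in PSD1 overexpression, against 4502 and 4044 CPM in WT (-1.06 ± 0.07). Its natural inhibitor INH1 had 134 and 127 CPM in PSD1 overexpression, against 276 and 270 CPM in WT (-1.06 ± 0.05). STF2 and STF1 were the exceptions on that list. STF2, whose product is also known as a hydrophilin, had 210 and 210 CPM in PSD1 overexpression, against 69.7 and 67.2 CPM in WT (1.62 ± 0.05), and STF1 rose by 0.35 ± 0.06. QCR6 of complex III had 635 and 561 CPM in PSD1 overexpression, against 1187 and 1202 CPM in WT (-1.0 ± 0.06). COX4 of complex IV had 368 and 364 CPM in PSD1 overexpression, against 728 and 748 CPM in WT (-1.01 ± 0.05). Among assembly factors PET117 had 115 and 118 CPM in PSD1 overexpression, against 56.3 and 57.1 CPM in WT (1.03 ± 0.06), and the copper chaperone gene SCO1 (0.76) and CBP4 (0.86) rose as well, whereas ATP10 (-0.52), COX19 (-0.27) and BCS1 (-0.24) fell. The call of COX19 was lost in 10 alternatives, among them DESeq2, the replicate block, the 4 libraries alone and each single library left out. COX26, a small complex IV subunit, had 94 and 92 counts in PSD1 overexpression, against 74 and 68 in WT, and did not pass (0.53 ± 0.23), although it was called higher in fits limited to the 4 libraries, with the replicate block and with either pdr3Δ library left out.

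HAP4, the regulated subunit of the complex that activates respiratory genes through CCAAT boxes, had 445 and 455 CPM in PSD1 overexpression, against 643 and 634 CPM in WT (-0.51 ± 0.05). The tricarboxylic acid cycle and the carriers of the inner membrane went with the respiratory subunits. Of 21 cycle genes 16 fell, 1 rose and 4 did not pass (median -0.59). The rise was LAT1 (0.15 ± 0.06), a pyruvate dehydrogenase subunit, whose call was lost in 6 of the alternatives, among them the fit to the 4 libraries alone. ACO1, aconitase, had 1939 and 1968 CPM in PSD1 overexpression, against 4135 and 3859 CPM in WT (-1.03 ± 0.07), and FUM1, fumarase, fell by 1.12 ± 0.06. Of 30 carriers 15 fell, 4 rose and 11 did not pass (median -0.22). PET9, the major exchanger of ADP and ATP, had 1164 and 1048 CPM in PSD1 overexpression, against 2691 and 2426 CPM in WT (-1.21 ± 0.07). Its minor paralog AAC1 had 104 and 102 CPM in PSD1 overexpression, against 81.6 and 71.8 CPM in WT (0.43 ± 0.07). SFC1, the succinate and fumarate carrier, had 67.7 and 65.7 CPM in PSD1 overexpression, against 145 and 196 CPM in WT (-1.35 ± 0.14).
Ubiquinone synthesis ran the other way, with 8 of 11 genes higher and 1 lower (median 0.42). COQ4 rose by 0.78 ± 0.06, and COQ2, the prenyl transferase, fell by 0.39 ± 0.06. Heme synthesis had 5 of 9 lower and 1 higher (median -0.15), and only 2 lower in 5 alternatives that included DESeq2. HEM1, which starts the pathway, had 261 and 243 CPM in PSD1 overexpression, against 372 and 324 CPM in WT (-0.46 ± 0.07). Of 24 genes of iron-sulfur cluster assembly 10 rose and 4 fell (median 0.05), with the scaffold ISU1 at 219 and 215 CPM in PSD1 overexpression, against 276 and 350 CPM in WT (-0.53 ± 0.11).
Genes of mitochondrial gene expression were mixed or higher. Of 75 mitochondrial ribosomal protein genes 47 rose, 7 fell and 21 did not pass (median 0.20); 3 were lower with either PSD1 overexpression library or WT library 2 left out. Of 30 translation factors and tRNA synthetases of the organelle 10 were higher (33.3%) and 9 lower (30%). These shares lay near the 27.9% of all tested loci in each direction. The translation factor gene MEF2 had 75.9 and 72.8 CPM in PSD1 overexpression, against 152 and 147 CPM in WT (-1.01 ± 0.06). RPM2, the protein of mitochondrial RNase P, had 346 and 346 CPM in PSD1 overexpression, against 883 and 902 CPM in WT (-1.37 ± 0.05), 1 of the 12 largest falls at a mean log2 CPM of at least 2. Transcripts of the mitochondrial genome itself made up 0.0033% of counts or less in each library. Only 3 of its loci were tested, with a median log2 of 0.307, and 0% were called higher or lower.

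**Figure D3:**
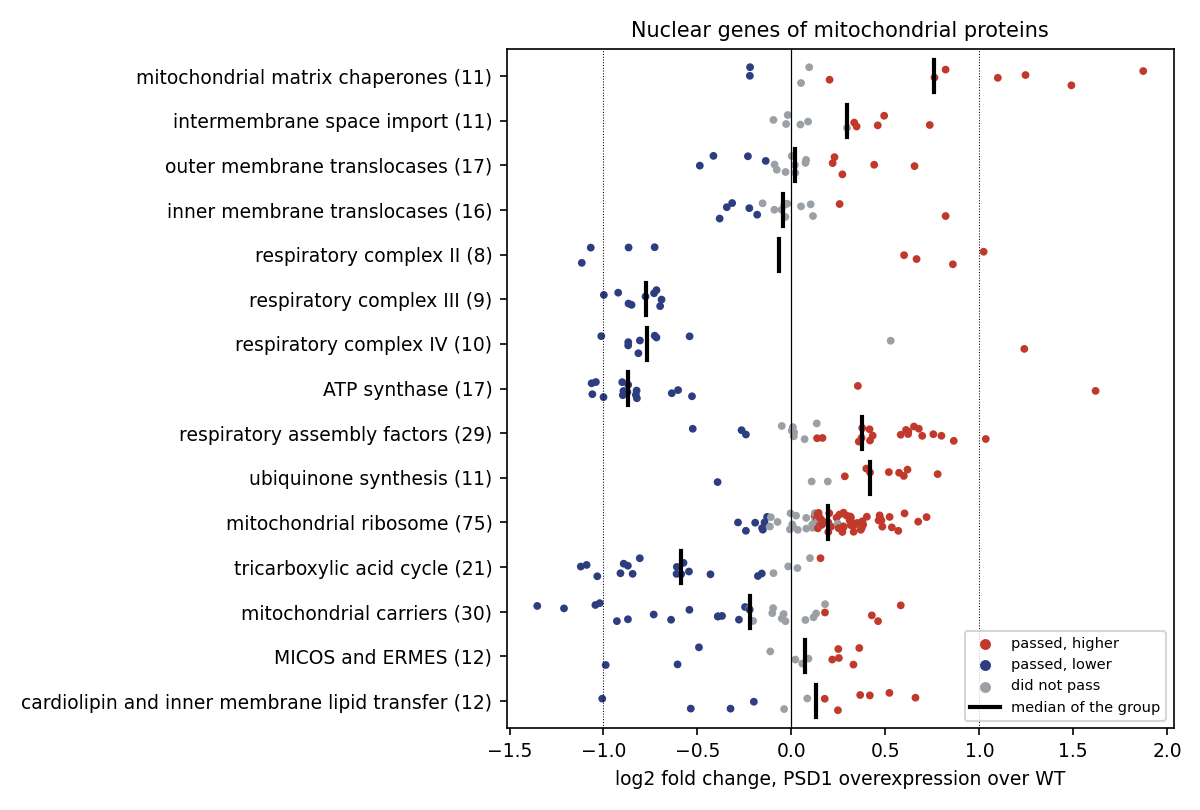
Log2 fold change of PSD1 overexpression over WT for each tested member of 15 mitochondrial gene lists, one point per gene, red for genes called higher, blue for genes called lower and grey for genes that did not pass; black bars are list medians and dotted lines mark 2-fold in either direction. Complexes III and IV, ATP synthase and the citric acid cycle lie mostly below 0, while matrix chaperones, assembly factors and ubiquinone genes lie mostly above it.

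Membrane lipid genes were considered because Psd1 makes phosphatidylethanolamine. Of 26 phospholipid synthesis genes 3 rose, 11 fell and 12 did not pass (median -0.05). The 11 were fewer without PSD1 overexpression library 1 (5), PSD1 overexpression library 2 (7) or WT library 1 (7). The falls included genes that inositol represses through Ino2, Ino4 and Opi1. ITR1, the inositol permease, had 594 and 559 CPM in PSD1 overexpression, against 1534 and 1231 CPM in WT (-1.26 ± 0.15). INO1, which makes inositol phosphate, had 110 and 116 CPM in PSD1 overexpression, against 256 and 147 CPM in WT (-0.83 ± 0.27), a call lost with DESeq2, with FPKM and without WT library 1 or either PSD1 overexpression library, and WT library 1 lay well above WT library 2. HNM1, the choline permease, had 223 and 231 CPM in PSD1 overexpression, against 424 and 373 CPM in WT (-0.81 ± 0.08). CHO1, which supplies phosphatidylserine to Psd1, had 357 and 358 CPM in PSD1 overexpression, against 507 and 439 CPM in WT (-0.40 ± 0.08). PSD2, the decarboxylase of the endosomal system, had 111 and 111 CPM in PSD1 overexpression, against 113 and 105 CPM in WT, and did not pass (0.03 ± 0.05).
Of 12 genes of cardiolipin synthesis and inner membrane lipid transfer 6 rose (50%) and 4 fell (33.3%), against 27.9% of all tested loci in each direction. UPS2, which carries phosphatidylserine across the intermembrane space to Psd1, had 208 and 211 CPM in PSD1 overexpression, against 429 and 412 CPM in WT (-1.01 ± 0.05). Its partner MDM35 had 145 and 159 CPM in PSD1 overexpression, against 93.5 and 98.4 CPM in WT (0.66 ± 0.06). CRD1, cardiolipin synthase, did not pass (-0.04 ± 0.08). In the MICOS complex, which shapes cristae, MIC60 had 312 and 296 CPM in PSD1 overexpression, against 609 and 599 CPM in WT (-0.99 ± 0.05) and MIC19 (-0.61) and MIC10 (-0.49) also fell. Together MICOS and the contact site complex ERMES gave 5 of 12 higher (41.7%) and 3 lower (25%), against 27.9% of all tested loci in each direction. Only 2 were higher under DESeq2, and fewer were higher without PSD1 overexpression library 2 or WT library 1.
Sterol synthesis had 13 of 27 higher and 3 lower (median 0.13), and the largest change was in ARE2, which esterifies sterols, with 210 and 216 CPM in PSD1 overexpression, against 109 and 88.5 CPM in WT (1.11 ± 0.08). Sphingolipid synthesis had 8 of 27 higher (29.6%) and 9 lower (33.3%), near the 27.9% of all tested loci in each direction (median 0.02). Ceramide synthase paralogs moved differently. LAC1 had 161 and 175 CPM in PSD1 overexpression, against 69.5 and 75.2 CPM in WT (1.21 ± 0.06). LAG1 had 150 and 165 CPM in PSD1 overexpression, against 189 and 198 CPM in WT (-0.30 ± 0.06). The fatty acid elongases of very long chains fell, ELO3 with 252 and 257 CPM in PSD1 overexpression, against 444 and 485 CPM in WT (-0.87 ± 0.05) and ELO2 at -0.82 ± 0.05.

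Carbon metabolism changed in both directions. Of 14 lower glycolysis genes 13 rose and 0 fell (median 1.09), and they took 2.86 and 2.86% of counts in PSD1 overexpression, against 1.41 and 1.30% in WT. PGK1, phosphoglycerate kinase, had 3729 and 3780 CPM in PSD1 overexpression, against 1382 and 1207 CPM in WT (1.54 ± 0.07), with 595 bp of overlap with YCR013C on the other strand. TDH3, the main glyceraldehyde phosphate dehydrogenase, had 11521 and 11547 CPM in PSD1 overexpression, against 6822 and 6613 CPM in WT (0.78 ± 0.07). Copies of the TDH and ENO genes are near-identical, and how the counting divided their reads is not given. Of 12 upper glycolysis genes 10 rose and 2 fell (median 0.49). HXK2, the hexokinase of glucose growth, had 1243 and 1148 CPM in PSD1 overexpression, against 1726 and 1795 CPM in WT (-0.56 ± 0.06). HXK1, in a locus with YFR052C-A, had 2341 and 2435 CPM in PSD1 overexpression, against 877 and 790 CPM in WT (1.52 ± 0.06).
Genes for growth on other carbon sources were more often lower than higher. Of 23 genes of the glyoxylate cycle and gluconeogenesis 11 fell, 2 rose and 10 did not pass (median -0.53). JEN1, the lactate permease, had 160 and 149 CPM in PSD1 overexpression, against 593 and 610 CPM in WT (-1.96 ± 0.05), the largest fall among called loci with a mean log2 CPM of at least 2. PDH1, a propionate gene outside the lists, had 134 and 130 CPM in PSD1 overexpression, against 325 and 313 CPM in WT (-1.27 ± 0.10). YIG1, also outside the lists and named here only for the size of its fall, had 28 and 23.4 CPM in PSD1 overexpression, against 96.2 and 87.6 CPM in WT (-1.83 ± 0.09). FBP1, fructose bisphosphatase, had 31.4 and 33 CPM in PSD1 overexpression, against 76.4 and 100 CPM in WT (-1.46 ± 0.12). ACH1, a CoA transferase for acetate, had 240 and 228 CPM in PSD1 overexpression, against 734 and 619 CPM in WT (-1.53 ± 0.09). The 2 rises were MDH2 (0.65 ± 0.13) and CAT2 (0.45 ± 0.11) and there were 5 without WT library 2 and 1 without PSD1 overexpression library 2. ADH2, which oxidises ethanol, had 84.3 and 86.8 CPM in PSD1 overexpression, against 249 and 326 CPM in WT (-1.75 ± 0.14), and the fermentation list as a whole had 9 of 17 higher and 6 lower (median 0.28), with PDC1 higher by 0.90 ± 0.09. The largest rise on that list was ALD3, with 193 and 202 CPM in PSD1 overexpression, against 15.6 and 27.3 CPM in WT (3.19 ± 0.21). RKI1, the ribose phosphate isomerase, had 87.5 and 87.4 CPM in PSD1 overexpression, against 190 and 198 CPM in WT (-1.15 ± 0.05).
Of 20 hexose transporter and glucose sensing genes 6 rose (30%) and 3 fell (15%), against 27.9% of all tested loci in each direction (median 0.11). HXT5 had 215 and 231 CPM in PSD1 overexpression, against 25.5 and 60.3 CPM in WT (2.37 ± 0.25). HXT3 had 89.7 and 85.5 CPM in PSD1 overexpression, against 27.7 and 29.1 CPM in WT (1.62 ± 0.09). HXT7, a high-affinity transporter, had 158 and 148 CPM in PSD1 overexpression, against 256 and 251 CPM in WT (-0.73 ± 0.06). Trehalose and glycogen genes were higher for 11 of 19 and lower for 2 (median 0.30), with 1 to 4 lower across the alternatives. TSL1, a trehalose synthase subunit, had 339 and 334 CPM in PSD1 overexpression, against 122 and 88.5 CPM in WT (1.68 ± 0.11). GLG2, a glycogen primer, fell (-0.86 ± 0.06).

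Several metabolic steps are encoded by a pair of paralogs of which one rose far more than the other. In the oxidative branch of the pentose phosphate pathway GND2 had 227 and 251 CPM in PSD1 overexpression, against 16.9 and 15.8 CPM in WT (3.87 ± 0.08, 14.7-fold). The major isozyme GND1 had 914 and 856 CPM in PSD1 overexpression, against 1045 and 970 CPM in WT (-0.19 ± 0.06), a fall that lost its call without WT library 1 or PSD1 overexpression library 2. TKL2, a transketolase in a locus with YBR116C, had 410 and 455 CPM in PSD1 overexpression, against 27 and 33.8 CPM in WT (3.82 ± 0.10), and TKL1 fell by 0.40 ± 0.05. NQM1, a transaldolase paralog, had 315 and 355 CPM in PSD1 overexpression, against 16.9 and 31.1 CPM in WT (3.79 ± 0.21), while TAL1 did not pass (-0.01 ± 0.05). SOL4 rose by 2.61 ± 0.06, and SOL3 did not pass (0.09 ± 0.05).
The same held for several respiratory and redox pairs. NDE2 had 62.9 and 64.6 CPM in PSD1 overexpression, against 16.9 and 21.5 CPM in WT (1.73 ± 0.10). NDE1, the other external NADH dehydrogenase, had 1526 and 1471 CPM in PSD1 overexpression, against 2736 and 2790 CPM in WT (-0.88 ± 0.06). CYC7, the minor cytochrome c, had 85.4 and 80.7 CPM in PSD1 overexpression, against 30 and 27.2 CPM in WT (1.54 ± 0.07). CYC1, the major one, had 826 and 784 CPM in PSD1 overexpression, against 1577 and 1455 CPM in WT (-0.91 ± 0.06). COX5B, the form known from low oxygen, had 33.3 and 31.9 CPM in PSD1 overexpression, against 14.2 and 13.5 CPM in WT (1.24 ± 0.10). COX5A had 514 and 455 CPM in PSD1 overexpression, against 911 and 859 CPM in WT (-0.87 ± 0.06). Among thioredoxin peroxidases TSA2 rose by 1.20 ± 0.10 and TSA1 by 0.27 ± 0.05.

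**Figure D4:**
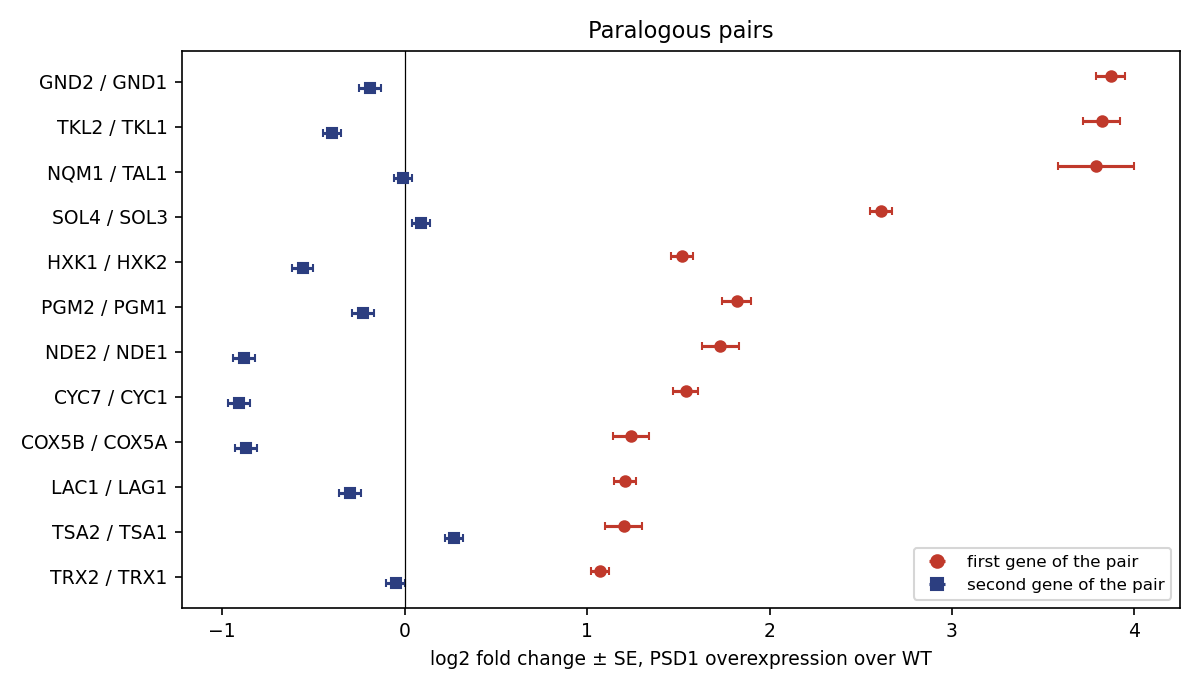
Log2 fold change of PSD1 overexpression over WT, with SE, for both members of 12 paralog pairs of carbon, respiratory, lipid and redox metabolism, 2 libraries per group. The pairs drawn are a selection, each written with its higher member first, so that order is not a result. They include GND2 at 3.87 beside GND1 at -0.19 and COX5B at 1.24 beside COX5A at -0.87. Pairs not drawn include some that moved together, such as CLN1 (-0.88) with CLN2 (-0.85) and SSC1 (0.82) with ECM10 (0.76).

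Genes of the general stress response, which Msn2 and Msn4 activate through the element AGGGG, were among the largest rises. Of 33 on the list 29 rose, 22 at least 2-fold, 0 fell and 4 did not pass (median 2.03). SIP18, a phospholipid-binding hydrophilin, had 249 and 234 CPM in PSD1 overexpression, against 7.73 and 12.9 CPM in WT (4.54 ± 0.22, 23.3-fold). GRE1, a related hydrophilin, had 260 and 294 CPM in PSD1 overexpression, against 7.99 and 22.8 CPM in WT (4.15 ± 0.30). In both genes WT library 2 lay well above WT library 1, yet far below either overexpression library. PAI3, an inhibitor of the vacuolar protease Pep4, had 153 and 156 CPM in PSD1 overexpression, against 12.3 and 15.4 CPM in WT (3.47 ± 0.11). HSP12, a membrane-bound stress protein, had 5059 and 5088 CPM in PSD1 overexpression, against 1110 and 1220 CPM in WT (2.12 ± 0.08). The activator genes themselves moved little. MSN2 rose by 0.20 ± 0.06, a call lost without PSD1 overexpression library 2, and MSN4 did not pass, with 171 and 179 CPM in PSD1 overexpression, against 188 and 162 CPM in WT.
Outside the lists, FMP16, whose product was found in mitochondria, had 131 and 142 CPM in PSD1 overexpression, against 8.6 and 9.55 CPM in WT (3.90 ± 0.08), and YMR175W-A, next to SIP18, had 141 and 120 counts in PSD1 overexpression, against 6 and 11 in WT (4.06 ± 0.34).
Of 33 genes of peroxide and thiol redox 21 rose and 5 fell (median 0.53), with 3 lower when either PSD1 overexpression library was left out. CTT1, cytosolic catalase, had 710 and 753 CPM in PSD1 overexpression, against 57.6 and 83.1 CPM in WT (3.37 ± 0.16). AHP1, a peroxiredoxin, had 1710 and 1948 CPM in PSD1 overexpression, against 359 and 307 CPM in WT (2.46 ± 0.09). The peroxisomal catalase CTA1 fell by 0.37 ± 0.08. Of 21 carbonyl reductases and oxidoreductases 15 rose (median 0.70), among them GRE3 (2.06 ± 0.05) and ARI1 (1.90 ± 0.10), and the 1 fall, FDH1 (-0.81 ± 0.30), lost its call in 7 alternatives and had no adjusted p in 2 others. The GABA shunt genes GAD1 (2.13 ± 0.05), UGA1 (1.61 ± 0.05) and UGA2 (1.65 ± 0.10) rose, and GDH1, which makes glutamate from ammonium, had 1331 and 1258 CPM in PSD1 overexpression, against 2376 and 2425 CPM in WT (-0.89 ± 0.05). For glycerol, the synthesis genes GPP1 (2.03 ± 0.14) and GPP2 (1.92 ± 0.12) rose, while GUT1, which consumes it, and the importer STL1 fell (-1.05 ± 0.12 and -1.12 ± 0.06).

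Genes of the translation apparatus fell broadly. Of 137 cytosolic ribosomal protein genes 135 fell (98.5%), 1 rose and 1 did not pass, with a median log2 of -0.76, and only 2 fell by 2-fold or more. Their share of all counts was 6.40 and 6.09% in PSD1 overexpression, against 10.4 and 10.8% in WT. RPL3 had 2740 and 2501 CPM in PSD1 overexpression, against 4529 and 4380 CPM in WT (-0.77 ± 0.06). RPS22B had 142 and 134 CPM in PSD1 overexpression, against 278 and 288 CPM in WT (-1.03 ± 0.05). The rise was RPL15B, with 52.9 and 59 CPM in PSD1 overexpression, against 44.1 and 40.3 CPM in WT (0.41 ± 0.08, adjusted p = 0.00135), and RPL43A did not pass (-0.85 ± 0.45). Many of these genes are near-identical pairs, so values of single copies are less certain than the count over the list.
Ribosome biogenesis fell by less, with 78 of 91 lower and 0 higher (median -0.31). GAR1, a small nucleolar RNA protein, fell by 0.65 ± 0.05. RNA polymerase I had 8 of 11 lower and 0 higher, and RNA polymerase III had 10 of 22 lower and 4 higher, with 2 higher without PSD1 overexpression library 1. Cytosolic tRNA synthetases were lower for 20 of 21 (median -0.40) and translation factors for 29 of 33 (median -0.33). YEF3, an elongation factor, had 4137 and 4169 CPM in PSD1 overexpression, against 5561 and 5567 CPM in WT (-0.42 ± 0.06). PMA1, the plasma membrane proton pump, had 4543 and 4642 CPM in PSD1 overexpression, against 6096 and 5840 CPM in WT (-0.38 ± 0.07).

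Genes of the G1 and S phases and of mitosis were mostly lower. Of 25 G1 and S phase genes 17 fell and 1 rose (median -0.33), and of 22 mitotic genes 19 fell and 0 rose (median -0.37). The G1 cyclin gene CLN1 had 124 and 125 CPM in PSD1 overexpression, against 230 and 229 CPM in WT (-0.88 ± 0.05). Its partner CLN2 had 136 and 132 CPM in PSD1 overexpression, against 251 and 234 CPM in WT (-0.85 ± 0.06). The rise was SIC1, an inhibitor of the S phase cyclin kinase, with 188 and 182 CPM in PSD1 overexpression, against 152 and 142 CPM in WT (0.34 ± 0.05). Of 18 replicative helicase and origin genes 6 fell, 2 rose and 10 did not pass (median -0.12), a share lower of 33.3%, against 27.9% of all tested loci. TAH11 of that list, which licenses replication origins, had 134 and 135 CPM in PSD1 overexpression, against 67.6 and 64.8 CPM in WT (1.02 ± 0.07). Histones had 9 of 10 lower (median -0.42), and the variant histone gene HTZ1 did not pass (-0.04 ± 0.05). HO, the mating-type endonuclease made in late G1, had 127 and 118 CPM in PSD1 overexpression, against 242 and 249 CPM in WT (-1.01 ± 0.05).

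Amino acid and nucleotide pathways differed among themselves. ARG1 and ARG3 of arginine synthesis fell (-1.04 ± 0.08 and -0.97 ± 0.05), whereas LYS9 of lysine synthesis rose (0.66 ± 0.05); that list had 10 of 19 lower and 4 higher. Branched-chain and aromatic pathways had 21 of 26 lower and 0 higher (median -0.40), and GCN4, their activator, fell by 0.46 ± 0.05 at the RNA level. Purine synthesis had 14 of 26 higher and 8 lower. ADE17, of the last steps to inosine monophosphate, had 200 and 230 CPM in PSD1 overexpression, against 40.8 and 51.9 CPM in WT (2.21 ± 0.10). The glycine cleavage gene GCV1, which supplies one-carbon units, had 131 and 149 CPM in PSD1 overexpression, against 52.9 and 65.5 CPM in WT (1.24 ± 0.09). IMD3, which opens the route to GMP, fell by 0.77 ± 0.05.
Vitamin and mineral genes rested more on single libraries, and the 25.9% of iron regulon genes called higher lay near the 27.9% of all tested loci. BIO2, biotin synthase, had 79.7 and 72 CPM in PSD1 overexpression, against 249 and 113 CPM in WT (-1.25 ± 0.31, adjusted p = 0.00673), with WT library 1 more than 2-fold above WT library 2, and it lost its call without PSD1 overexpression library 2. Of 6 biotin genes 4 fell, but 1 or 2 did in 6 alternatives. The iron regulon had 7 of 27 higher and 3 lower, with 13 higher without WT library 2 and 6 lower without WT library 1. Phosphate genes had 12 of 25 lower and 2 higher, with 5 or 6 lower under DESeq2 and with either PSD1 overexpression library left out, and the phosphatase gene PHM8 rose by 1.73 ± 0.13.

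Promoter motifs, searched on both strands in 500 bases upstream of 5583 start codons, were spread unevenly over the calls. The stress element AGGGG lay in 58.8% of the 221 promoters of genes at least 2-fold higher, in 44.5% of the 1642 called higher in 29.9% of the 1610 called lower and in 49% of the 49 at least 2-fold lower, against 34.3% of all. The triple heat shock unit lay in 7.69% of those at least 2-fold higher and in 1.77% of those called higher, against 1.54% of all. The Gal4 site lay in 11.8% of those at least 2-fold higher and 4.08% of those called higher, against 3.01% of all, and in 10 of 11 galactose gene promoters. Among genes called lower, the ribosome biogenesis motifs GATGAG (PAC) and AAAATTTT (RRPE core) lay in 35% and 22.7%, against 27.9% and 12.9% of all, and the MCB element ACGCGT of G1 genes in 8.63%, against 5.45%. Among genes at least 2-fold lower these shares were 14.3% for PAC, 6.12% for the RRPE core and 4.08% for the MCB element. Of 90 ribosome biogenesis promoters 81 held PAC and 64 the RRPE core. The letters CCAAT lay in 83.7% of the 49 promoters of genes at least 2-fold lower and in 66.1% of those called lower, against 63% of all. The Yap element TTACTAA lay in 15.8% of promoters of genes at least 2-fold higher, in 12.1% of those called higher, in 12.5% of those called lower and in 18.4% of those at least 2-fold lower, against 12.1% of all. Short motifs occur often and can overlap one another, so these shares describe letters in a window and not binding.

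**Figure D5:**
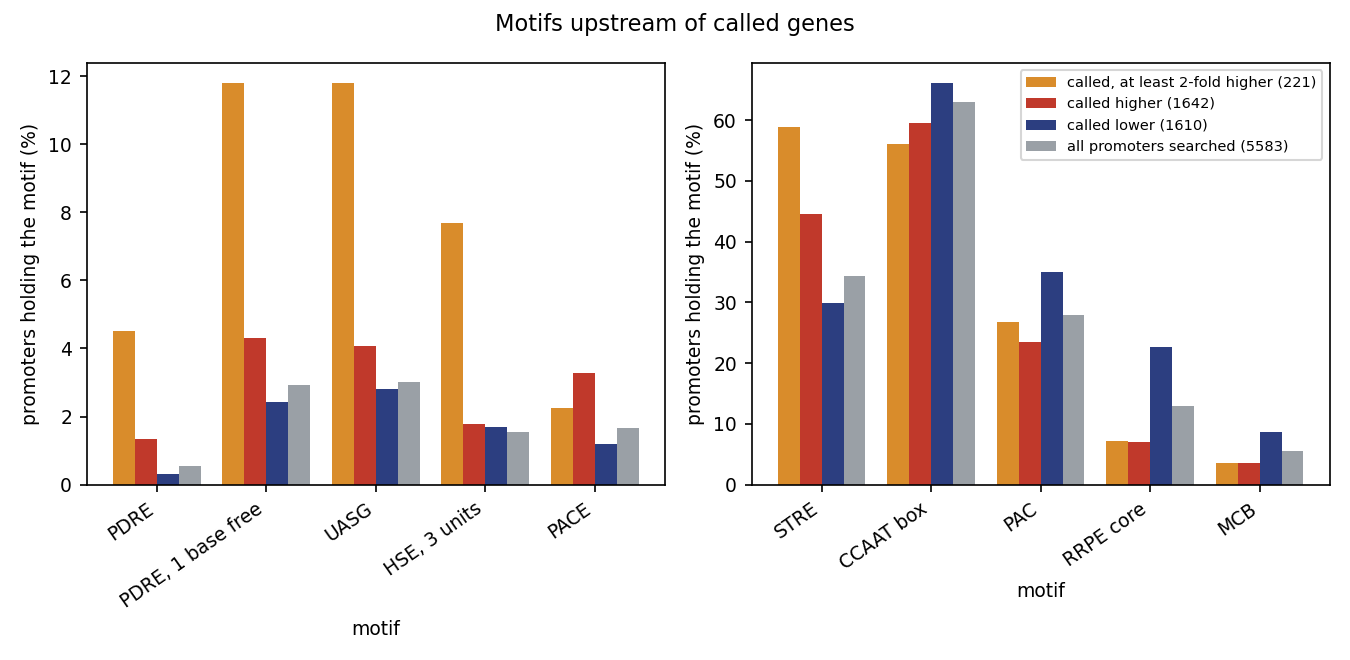
Share of promoters that hold each motif, in percent, for genes at least 2-fold higher in PSD1 overexpression (221), called higher (1642), called lower (1610) and all promoters searched (5583). The stress element lies in 58.8% of promoters in the first of these groups and in 29.9% of those called lower, and the ribosome biogenesis motifs are most frequent in genes called lower.

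By mean CPM, the loci that gained most were PSD1 (14069.3 CPM), GAL1 (6173.1), GAL10 (5834.9), TDH3 (4816.5), GAL2 (4494.8), HSP12 (3908.9), GAL7 (3796.6) and PDR5 (3010.1). Those that lost most were URA3 (-4500 CPM), ATP2 (-2222.5), ACO1 (-2043.9), RPL3 (-1834), PET9 (-1452.9), YEF3 (-1410.9), PMA1 (-1375.8) and ATP1 (-1310.1). The gains thus came from the plasmid gene, galactose, glycolysis, stress and efflux genes, and the losses from URA3, PMA1 and genes of respiration and translation. Level and direction were related: among the 1235 loci of lowest mean log2 CPM (-0.35 to 4.75) 24.5% were higher and 9.15% lower, while among the 1233 of highest (7.58 to 13.32) 27.6% were higher and 52% lower, and called shares were 33.6% and 79.6%.
Since 1073 loci overlap another on the opposite strand and strand use is not stated, some changes may belong to either partner. YOR121C, antisense to GCY1 over 255 bp, rose by 3.43 ± 0.06 with 389 and 364 CPM in PSD1 overexpression, against 36.1 and 33.5 CPM in WT, beside 3.36 ± 0.05 for GCY1. YOL150C, opposite GRE2, rose by 3.12 ± 0.12, beside 3.15 ± 0.08 for GRE2. YBL100C, opposite ATP1 over 251 bp, fell by 1.20 ± 0.07, beside -1.0 ± 0.06 for ATP1.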

How the data were processed

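Per the labels' protocols, total RNA came from a column kit (RNeasy) and libraries were Illumina TruSeq. The submitters' processing notes list Cufflinks and Cuffdiff (both 2.2.0), TopHat2 2.0.9, SAMtools 0.1.18 and Bowtie2 2.1.0, and the sacCer3 (R64) build. Which tool counted the reads, and with what strand setting, no label or header used here says. The authors deposited whole-number counts per locus, not normalized. A second deposited table holds FPKM for these loci, a value the authors scaled for gene length and depth. Of 6931 loci, 115 hold several genes and were kept as 1 locus.

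edgeR 4.0.16 (R 4.3.3) was run on the counts of all 6 libraries (quasi-likelihood test, filterByExpr, TMM factors of 0.99 to 1.012, 3 residual degrees of freedom, Benjamini-Hochberg over 6171 loci). Each SE was derived from the log2 fold change and the F statistic, as |log2| over the root of F. The test was checked on simulated counts. Replicates differed by more than counting noise (chi-square per degree of freedom 3.02 in PSD1 overexpression, 7.18 in WT). Alternatives were DESeq2 1.42.0, limma 3.58.1 (voom on counts, and trend on log2 FPKM with a pseudocount of 1 or of 0.1), RLE factors, library totals alone, library sizes without PSD1, galactose, ribosomal RNA and mitochondrial genome genes, no filter, at least 50 counts in 2 libraries, the 4 libraries alone, a replicate block, and each library left out.

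The comparison, gene lists and pairs were chosen with earlier results of these data known. Genes were named by a rule: PSD1, PDR3, PDR1, CIS1 and PDR5; the 12 largest rises and falls among called loci with a mean log2 CPM of at least 2; the 8 largest gains and losses of mean CPM; up to 4 members per list with the largest changes, with those against its direction; members of short lists and pairs. Other genes were named after their values were seen. Names matched the R64 annotation for 85.5% of gene names, with equal start and end for 99.54% of these. Promoter windows are the 500 bases before the start codon in R64.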

Additional observations from a re-analysis of the deposited data

How the results depend on the processing

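The 6 counts of called loci stayed within 1.5 times their value under every alternative run. The number called, 3443 as reported, was 2795 with DESeq2, 3410 with limma-voom, 3241 and 3236 with limma on log2(FPKM + 1) and log2(FPKM + 0.1), 3443 with RLE factors, 3416 with library totals alone, 3435 with library sizes that left out PSD1 and galactose genes, 3418 with no filter, 3408 at 50 counts in 2 libraries and 3384 with the 4 libraries alone. It ranged from 2732 to 3388 with single libraries left out. Loci at least 2-fold different, 301 as reported, ranged from 272 to 315. With the replicate block 3491 loci were called, 1748 higher and 1743 lower. Same-numbered libraries of PSD1 overexpression and WT had deviations that correlated at 0.041, and those of WT and the pdr3Δ group at 0.194. With 2 libraries per group this does not settle whether the numbers pair libraries, and the labels name no shared batch, so they were not treated as pairs. The 1767 genes followed were all tested list members and the loci of largest change, whether or not the text names them. Over these genes and all alternatives, 28893 values were counted as unchanged, 889 lost the call and 210 gained it. Among genes called in the main fit 0 changed direction, and direction was not followed for the others. Of the counts over gene lists 2715 stayed within 1.5 times and 141 did not. The cause of these moves was not tested. Near-identical copies, loci that overlap on opposite strands, and the few counts of CIS1 and the galactose genes in WT limit single values. With 2 libraries per group, the smallest change called was 0.118 on the log2 scale.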

Other observations

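Other gene groups were also measured. Cell wall genes were more often lower than higher: of 26 glucan and chitin enzyme genes 18 fell and 6 rose (median log2 -0.47), and of 22 mannoprotein genes 11 fell and 7 rose (median -0.21). CWP1, a major wall mannoprotein, had 159 and 173 CPM in PSD1 overexpression, against 604 and 508 CPM in WT (-1.75 ± 0.11), and UTR2, a chitin transglycosylase, had 417 and 379 CPM in PSD1 overexpression, against 956 and 1017 CPM in WT (-1.31 ± 0.06). FKS1, a catalytic subunit of glucan synthase, had 849 and 820 CPM in PSD1 overexpression, against 1315 and 1218 CPM in WT (-0.60 ± 0.05), while its paralog GSC2 rose by 0.24 ± 0.06, a call lost without PSD1 overexpression library 2. The anaerobic mannoprotein gene TIR1 rose by 0.91 ± 0.23. The largest change on the mannoprotein list was a rise, that of SPI1, with 85.6 and 96.9 CPM in PSD1 overexpression, against 8.69 and 10.9 CPM in WT (3.21 ± 0.13).

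Peroxisome biogenesis had 17 of 29 genes higher and 1 lower (median 0.19), with 11 higher under DESeq2 and without WT library 1, and the fall, INP2, lost its call in 11 of the alternatives. PEX18, an import co-receptor, had 19.8 and 18.5 CPM in PSD1 overexpression, against 12.9 and 12.7 CPM in WT (0.58 ± 0.12). Beta-oxidation had 5 of 16 higher (31.2%) and 2 lower (12.5%), against 27.9% of all tested loci in each direction, and only 2 or 3 higher in 9 alternatives. POT1, the thiolase, had 46.4 and 50.1 CPM in PSD1 overexpression, against 25.8 and 23 CPM in WT (0.98 ± 0.10). Of 25 nitrogen uptake and permease genes 4 rose and 12 fell (median -0.16). PUT1, the first enzyme of proline degradation, had 447 and 522 CPM in PSD1 overexpression, against 150 and 174 CPM in WT (1.58 ± 0.11), whereas the peptide transporter gene PTR2 had 43.7 and 40.7 CPM in PSD1 overexpression, against 105 and 87.7 CPM in WT (-1.18 ± 0.09). Of 14 DNA damage response genes 7 rose and 3 fell (median 0.18), with 1 lower without PSD1 overexpression library 1. MAG1, a DNA glycosylase, had 65 and 68.7 CPM in PSD1 overexpression, against 36.1 and 36.3 CPM in WT (0.88 ± 0.06).

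The pheromone genes moved in both directions. Among 6 MATa genes 3 fell, 2 rose and 1 did not pass. STE2, the alpha factor receptor, had 361 and 370 CPM in PSD1 overexpression, against 484 and 503 CPM in WT (-0.43 ± 0.05), MFA2 fell by 0.73 ± 0.08 and STE6 by 0.42 ± 0.05. MFA1 (0.45 ± 0.12) and AGA2 (0.36 ± 0.10) rose, calls lost without PSD1 overexpression library 1 for MFA1 and without PSD1 overexpression library 2 for AGA2, and BAR1 did not pass (-0.11 ± 0.06). All 4 MATalpha genes were called higher. STE3, the a-factor receptor of MATalpha cells, had 6.77 and 7.64 CPM in PSD1 overexpression, against 3.56 and 4.49 CPM in WT (0.83 ± 0.24), a call lost without WT library 1 or PSD1 overexpression library 2. MF(ALPHA)1 had 5.54 and 6.08 CPM in PSD1 overexpression, against 2.26 and 1.96 CPM in WT (1.46 ± 0.21). MF(ALPHA)2 (0.55) and SAG1 (0.22) rose as well. Both of these calls were lost without WT library 2, and that of MF(ALPHA)2 also with DESeq2.

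Of the 12 largest falls among called loci with a mean log2 CPM of at least 2, 4 were at loci not described above. YML090W had 8.01 and 8.13 CPM in PSD1 overexpression, against 25.7 and 26.4 CPM in WT (-1.69 ± 0.11). It overlaps YML089C on the other strand by 90 bp, and YML089C fell as well (-1.64 ± 0.24). YML090W, at 90744 to 91130 of chromosome XIII, also lies just past RPM2 (87123 to 90731, on the other strand), which fell by 1.37. Whether the falls of YML090W and YML089C come from reads of RPM2 was not tested. YGR067C had 39.9 and 35.7 CPM in PSD1 overexpression, against 110 and 119 CPM in WT (-1.60 ± 0.08). SPS4 had 13.5 and 11.2 CPM in PSD1 overexpression, against 34.6 and 38.5 CPM in WT (-1.56 ± 0.13), and YNR066C had 14.3 and 14.6 CPM in PSD1 overexpression, against 41.4 and 37.4 CPM in WT (-1.44 ± 0.14).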
